A study of Mus musculus with 6 samples.

Results

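Bone morphogenetic protein (BMP) signaling was read from bulk RNA-seq through 10 genes of the extracellular and membrane steps of the pathway: the ligand genes *Bmp2*, *Bmp4* and *Bmp7*, the activin subunit gene *Inhba*, the receptor genes *Bmpr1a* and *Bmpr2*, the antagonist genes *Fst* and *Grem1*, the follistatin-like gene *Fstl1* and the protease gene *Bmp1*. They were chosen by gene symbol among the 16279 genes that 2 count tables list. The table for cardiac precursor cell cultures (CPCCs) lists 10 of the 10 genes, and the table for mouse embryonic stem cells (mESCs) lists 7. Both groups came from male F1 cells of strain C57BL/6 x CAST/EiJ, whose C57BL/6J allele is maternal and whose CAST/EiJ allele is paternal. The mESCs were grown on gelatin in serum medium with LIF and the inhibitors PD0325901 and CHIR99021, and each of the 3 clones came from 1 cell. CPCCs were made from those clones through hanging drops and embryoid bodies in medium with ascorbic acid, were then passaged in medium with EGF and Fgf2, and are described by the study as a mixture of cell types. The counts are per gene and not split by allele, and there were 3 libraries in each group. Library totals were 6442639 to 6907330 counts in mESCs and 8468819 to 11436062 counts in CPCCs. Libraries keep their column names, S01 to S03 (mESC) and S04 to S06 (CPCC). These names hold no replicate number, so no CPCC library was tied to its parent clone.

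BMPs are secreted as dimers and bind a complex of type I and type II serine/threonine kinase receptors, and the type I receptor then phosphorylates SMAD1, SMAD5 and SMAD9, which enter the nucleus with SMAD4. Secreted antagonists hold ligands away from the receptors, and extracellular proteases cut some of those antagonists and release the ligand. In the embryo BMP signals pattern the mesoderm and are needed at several steps of heart formation, while in mESC cultures BMP4 with LIF is known to sustain self-renewal through the *Id* genes.

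The identity of the cultures was checked with marker genes before the BMP genes were compared. All 10 markers of pluripotent cells were lower in CPCCs, with summed levels of 6515 to 6649 CPM, counts on a scale of 1000000 per library, in mESCs and 171.8, 342.7 and 462.7 CPM in S04 to S06. The 10 cardiac precursor markers summed to 7.26 to 11.9 CPM in mESCs and to 113, 46.7 and 50.2 CPM in S04 to S06. Of these, *Tbx5* and *Mesp1* are not listed for CPCCs, and *Nkx2-5* had 16, 0 and 8 counts there. Cardiomyocyte markers summed to 8.34 to 9.80 CPM in mESCs and to 427.6, 123 and 133.8 CPM in CPCCs, without *Tnni3*, which is not listed for CPCCs. The 12 markers of fibroblasts and mesenchyme are all listed for CPCCs, where they summed to 18160, 17859 and 11853 CPM against 10.8 to 18.6 CPM in mESCs. Neural markers summed to 589.9 to 661 CPM in CPCCs, with *Neurog2* not listed, and to 46.3 to 50.9 CPM in mESCs. Endoderm markers summed to 52.3 to 73.1 CPM in CPCCs, with *Hnf4a*, *Afp*, *Ttr* and *Apoa1* not listed, and to 1.85 to 9.65 CPM in mESCs. Genes not listed for a group entered these sums as 0. Listed for mESCs were 5 of 10 cardiac precursor, 5 of 9 cardiomyocyte, 4 of 12 mesenchyme, 6 of 10 neural and 5 of 10 endoderm markers. The part of these cell types in the BMP values below was not tested, and in bulk RNA more cells of a type and more RNA per cell cannot be told apart.

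Among the 7 BMP genes that both tables list, 6 were higher in CPCCs (*Bmp1*, *Fst*, *Fstl1*, *Bmp4*, *Bmpr2* and *Bmpr1a*) and 1 was lower (*Bmp7*) at a Benjamini-Hochberg adjusted p under 0.05, taken over all genes tested by the quasi-likelihood method of edgeR (the edgeR test from here on). Over all 12471 genes tested, 61.4% passed, 31.7% as higher and 29.7% as lower in CPCCs. In all 7 genes the CPCC libraries lay entirely above or entirely below the mESC libraries, as they did in 69.7% of all genes tested. Over the 7 genes the log2 fold change (CPCC over mESC) had a median of 3.97, against 0.031 over all genes tested. The other 3 genes, *Inhba*, *Bmp2* and *Grem1*, are listed for CPCCs only, as are 16.2% of the genes in the CPCC table. For them the fold is a lower bound against 3 counts per mESC library, a mean of 0.448 CPM, since the mESC table leaves out genes with under 10 counts over its libraries. The bound was at least 10-fold in 3 of the 3 and in 27.1% of all genes listed for CPCCs only. With these genes at their bounds, the median over the 10 genes was 4.30 on the log2 scale.

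**Figure D1:**
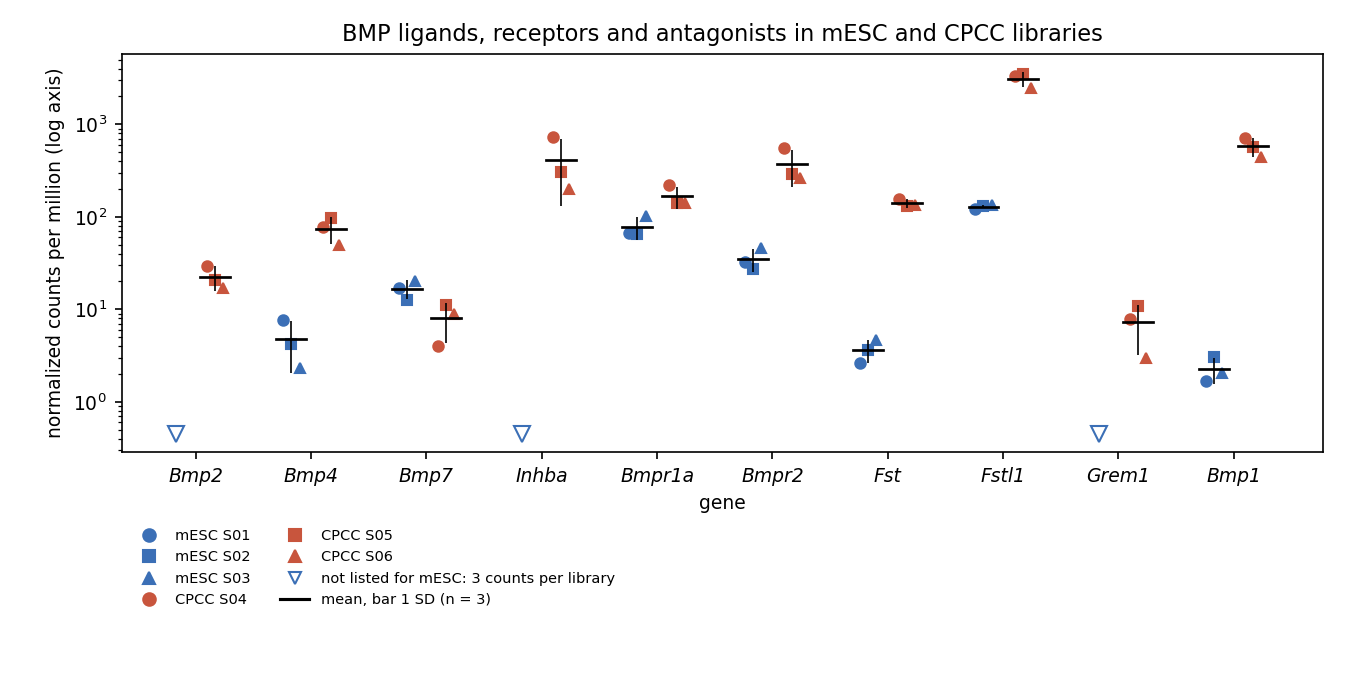
Normalized CPM (log axis) of the 10 genes in each of the 6 libraries, with the group mean and 1 SD (n = 3), and open triangles at the mean level of 3 counts for genes not listed for mESCs. The CPCC points sit above the mESC points in each listed gene except *Bmp7*, and S04 is the top CPCC point in 6 of the 10 genes.

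Promoter sequence was read for the BMP genes that had an entry in the RefSeq table of mouse promoters (GRCm38.p6), which were 6 of the 10: *Bmp4*, *Bmpr1a*, *Bmpr2*, *Grem1*, *Fstl1* and *Inhba*. Each window holds the 250 bases before the annotated start, 5′ to 3′ on the strand of the gene. GENCODE places the 5′ end further upstream for *Bmpr1a* (34503341), *Bmpr2* (59763400) and *Fstl1* (37776873). The *Bmpr1a* and *Bmpr2* windows thus lie inside the GENCODE genes, and the *Fstl1* window lies partly inside. On both strands, 2 motifs were searched: GGCGCC, a palindrome known as a GC-rich SMAD-binding element, and TATAAA, the core of the TATA box. GGCGCC was in 3 of the 6 windows (*Bmpr1a*, *Bmpr2* and *Grem1*) and in 15.7% of the 15769 windows of listed genes. TATAAA was in 1 of the 6 (*Inhba*) and in 7.22% of all windows. The windows differed widely in composition. The *Inhba* window had 43.2% G and C with 3 CpG dinucleotides, and the *Bmpr1a* window had 78.8% with 36, against medians of 59.2% and 14 over all windows. The 4 windows with a motif are shown with the motif in capitals, because they set the promoter of the gene with the largest bound beside those of both receptors and of an antagonist.
Inhba, chr13:16011601-16011850, plus strand: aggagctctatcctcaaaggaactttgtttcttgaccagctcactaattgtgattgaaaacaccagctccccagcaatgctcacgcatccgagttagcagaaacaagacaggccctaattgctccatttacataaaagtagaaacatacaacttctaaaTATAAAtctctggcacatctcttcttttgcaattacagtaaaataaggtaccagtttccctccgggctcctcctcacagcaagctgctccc
Bmpr1a, chr14:34502547-34502796, minus strand: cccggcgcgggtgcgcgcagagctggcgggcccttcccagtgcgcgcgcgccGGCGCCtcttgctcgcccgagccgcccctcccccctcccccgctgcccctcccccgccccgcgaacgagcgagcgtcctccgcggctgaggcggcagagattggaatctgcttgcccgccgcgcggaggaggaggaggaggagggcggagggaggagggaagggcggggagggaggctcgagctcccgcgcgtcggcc
Bmpr2, chr1:59764029-59764278, plus strand: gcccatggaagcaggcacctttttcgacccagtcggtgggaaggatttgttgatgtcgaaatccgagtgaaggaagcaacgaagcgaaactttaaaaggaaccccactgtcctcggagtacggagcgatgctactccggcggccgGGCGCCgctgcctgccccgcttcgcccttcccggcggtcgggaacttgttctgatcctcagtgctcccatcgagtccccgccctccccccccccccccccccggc
Grem1, chr2:113758649-113758898, minus strand: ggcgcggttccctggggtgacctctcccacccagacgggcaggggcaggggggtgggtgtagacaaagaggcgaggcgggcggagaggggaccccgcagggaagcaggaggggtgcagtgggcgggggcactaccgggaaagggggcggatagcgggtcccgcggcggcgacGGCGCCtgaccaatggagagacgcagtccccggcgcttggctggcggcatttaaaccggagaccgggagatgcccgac
A match is a description of the letters only, and neither motif overlaps the other in these windows.

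*Bmp4*, a ligand of the BMP2/4 subgroup that acts in mesoderm formation, lies on chromosome 14 from 46383525 to 46390670 (GRCm38, as for all table positions here). Its level was 7.72, 4.27 and 2.34 CPM in S01 to S03 and 78.2, 96.6 and 49.3 CPM in S04 to S06. The lowest CPCC library was far above the highest mESC library, although the mESC libraries themselves spread widely around a low level. The means were 4.78 ± 2.73 CPM in mESCs and 74.7 ± 23.9 CPM in CPCCs (SD, n = 3 each), a log2 fold change of 3.97 (standard error, SE, 0.43, edgeR test, adjusted p = 6.68e-05). In GENCODE, exons of *Bmp4* overlap *Gm15217* on the other strand by 89 bases, and the strand setting of the counting is not given in the sources used here, so reads of the overlap cannot be told apart.

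*Bmp2*, the close relative of *Bmp4*, which takes part in the induction of cardiac tissue and of the atrioventricular canal, lies on chromosome 2 from 133552159 to 133562897. It is not listed for mESCs and had 29.7, 20.7 and 16.8 CPM in S04 to S06. Each CPCC library was well above the 3-count level. The mean of 22.4 ± 6.60 CPM (SD, n = 3) was at least 50.1-fold above the mESC floor. With missing genes set to 3 counts in a test over genes of either table, its log2 fold change was 5.53 (adjusted p = 2.06e-05, edgeR test).

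*Bmp7*, a ligand of the BMP5/6/7/8 subgroup needed for kidney and eye development, lies on chromosome 2 from 172868012 to 172940322 and moved the other way. It had 17.1, 12.7 and 20.3 CPM in S01 to S03 and 3.98, 11.04 and 8.94 CPM in S04 to S06. The groups did not overlap, but the gap between the lowest mESC and the highest CPCC library was small, and S04 was the low CPCC library. Its means were 16.7 ± 3.86 and 7.98 ± 3.63 CPM (SD, n = 3 each), and the log2 fold change was -1.07 (SE 0.40, edgeR test, adjusted p = 0.0415). This call rested on single libraries: it was lost without S01 (adjusted p = 0.0970), S03 (0.134), S04 (0.0558) or S06 (0.0586) in the same edgeR test, and with library totals in place of TMM (0.0549). The log2 fold change stayed negative in these fits, between -1.37 and -0.73 with a library left out.

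*Inhba* encodes the βA subunit, of which activin A is a dimer; activin A uses the SMAD2/3 branch and is bound by follistatin. With the α subunit it forms inhibin A, which antagonizes activin. The gene lies on chromosome 13 from 16011851 to 16031610 and is not listed for mESCs. It had 725.6, 304 and 199 CPM in S04 to S06. S04 held 2.88 times the mean of the other CPCC libraries, and the highest library held 3.64 times the lowest. The mean of 410 ± 279 CPM (SD, n = 3) was at least 915-fold above the mESC floor, and at least 567-fold without S04. With missing genes at 3 counts, the log2 fold change was 9.72 (adjusted p = 1.90e-05, edgeR test).

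Levels of different ligand genes were compared per kilobase of exon (CPM per kb, with union exon lengths from GENCODE M21). Summed over the BMP-type ligand genes listed, the level was 12.3, 12.3 and 11.4 CPM per kb in S01 to S03 and 59.0, 60.9 and 39.0 CPM per kb in S04 to S06. *Bmp4* made up 28.0%, 15.4% and 9.16% of that sum in S01 to S03 and 59.0%, 70.5% and 56.2% in S04 to S06. *Bmp7* made up 34.8%, 25.6% and 44.5% in mESCs and 1.68%, 4.51% and 5.70% in CPCCs. So *Bmp4* was the leading ligand gene in each CPCC library, while *Bmp7* and *Bmp8a* led in mESCs with mean shares of 35.0% and 38.2%. The ratio of *Bmp4* to *Bmp7* per length was 0.805, 0.603 and 0.206 in mESCs and 35.2, 15.6 and 9.86 in CPCCs, without overlap between the groups. *Bmp2* held 14.2%, 9.58% and 12.2% of the ligand sum in CPCCs, where *Bmp4* was 4.16 to 7.37 times as high per length. *Bmp8a* and *Bmp8b* are close paralogs whose reads the counting could have split, so their values are uncertain.

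*Bmpr1a* encodes ALK3, the type I receptor that BMP2 and BMP4 bind best, and lies on chromosome 14 from 34411068 to 34502547. Its level was 66.1, 65.2 and 102.7 CPM in S01 to S03 and 219, 141.5 and 141.1 CPM in S04 to S06. S03 was the high mESC library and S04 the high CPCC library, and the groups did not overlap. The means were 78.0 ± 21.4 and 167 ± 44.9 CPM (SD, n = 3 each), a log2 fold change of 1.10 (SE 0.25, edgeR test, adjusted p = 0.00466). Among the 6 called as higher this was the smallest change, and it kept its call with each library left out (largest adjusted p 0.0279). Its exons overlap the antisense gene *Gm17110* by 290 bases, and reads there cannot be assigned without the strand.

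*Bmpr2*, the type II receptor specific to BMPs whose loss in humans is known from pulmonary arterial hypertension, lies on chromosome 1 from 59764279 to 59878082. It had 32.4, 27.1 and 46.1 CPM in S01 to S03 and 556, 288 and 265 CPM in S04 to S06. Each CPCC library was several times above each mESC library, and S04 held 2.01 times the mean of the other CPCC libraries. The means were 35.2 ± 9.80 and 370 ± 162 CPM (SD, n = 3 each), a log2 fold change of 3.39 (SE 0.34, edgeR test, adjusted p = 4.54e-05). Without S04 the log2 fold change was 2.99, the lowest of the fits with a library left out.

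Within the receptor families, levels were again compared per length. Of the summed CPM per kb of *Bmpr2*, *Acvr2a* and *Acvr2b*, the type II receptors, *Bmpr2* held 6.59%, 5.21% and 9.36% in S01 to S03 and 72.7%, 48.1% and 39.5% in S04 to S06. *Acvr2b*, which binds activins and also BMPs, held 83.8% to 86.7% in mESCs and 12.5%, 36.4% and 44.9% in S04 to S06. *Bmpr2* was thus above *Acvr2b* in S04 and S05 and below it in S06, with ratios of 5.82, 1.32 and 0.880. The family sum moved less, from 27.4 to 28.9 CPM per kb in mESCs to 33.3 to 42.6 CPM per kb in CPCCs. Without S04 the mean CPCC shares were 43.8% for *Bmpr2* and 40.6% for *Acvr2b*. Among the type I receptors, *Bmpr1a* held the largest share in all 6 libraries, 73.4% to 80.6% in mESCs and 55.6% to 66.3% in CPCCs. *Acvr1*, which encodes ALK2, came next, with 18.5% to 21.4% and 26.9% to 33.1%.

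**Figure D2:**
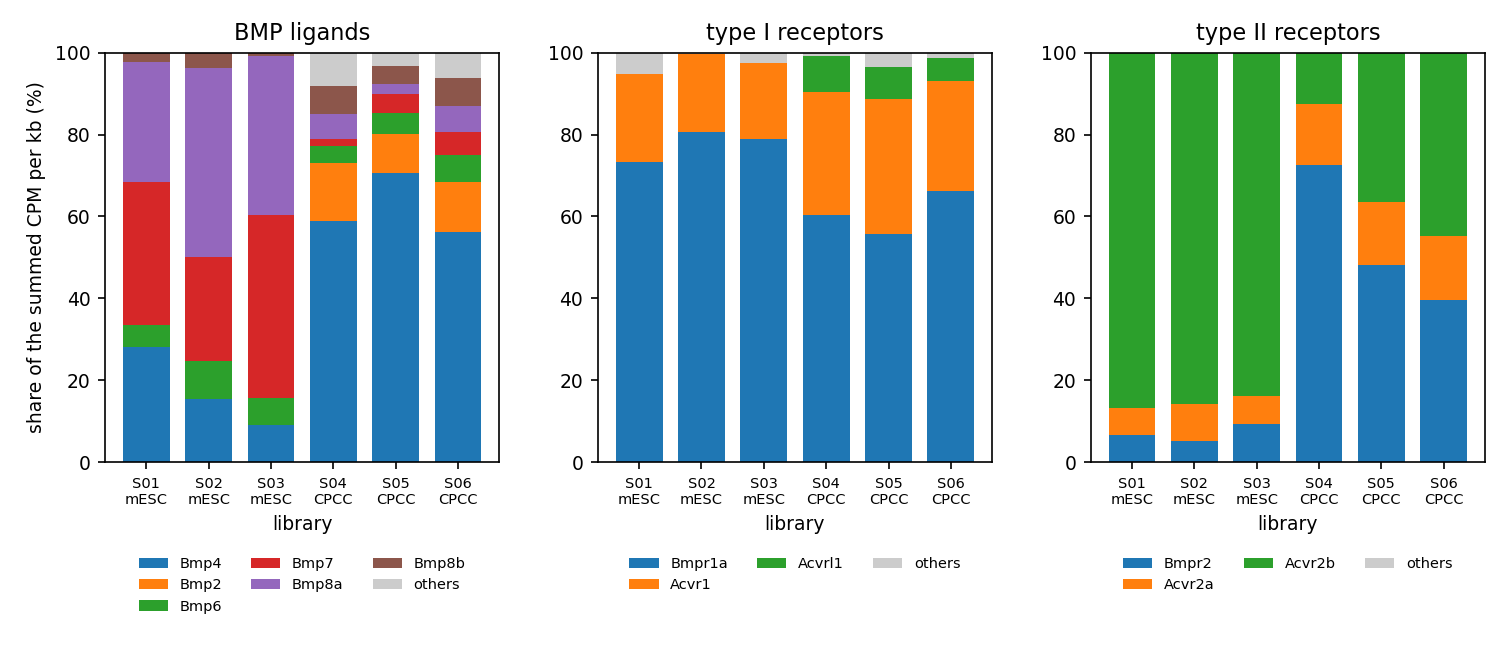
Share (%) of the summed CPM per kb of exon held by each gene of the BMP-type ligands, the type I receptors and the type II receptors, as stacked bars with 1 bar per library. *Bmp4* fills over 56% of each CPCC ligand bar, and *Bmpr2* grows from under 10% of each mESC type II bar to between 39.5% and 72.7% in CPCCs.

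*Fst* encodes follistatin, which binds activins almost irreversibly and some BMPs more weakly, and lies on chromosome 13 from 114452262 to 114458952. Its level was 2.63, 3.68 and 4.68 CPM in S01 to S03 and 157, 130.6 and 133 CPM in S04 to S06. The CPCC libraries lay close together, with the highest only 1.20 times the lowest, the narrowest spread of the 10 genes in CPCCs. The log2 fold change was 5.25 (SE 0.25, edgeR test, adjusted p = 1.61e-06). Its exons overlap the antisense gene *Gm47040* by 115 bases. Per length, *Fst* stood at 0.301, 0.598 and 0.931 times *Inhba* in S04 to S06, in reverse of the order of *Inhba*.

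*Grem1* encodes gremlin 1, a secreted antagonist of BMP2, BMP4 and BMP7, and lies on chromosome 2 from 113748675 to 113758649. It is not listed for mESCs and had 7.85, 10.9 and 2.98 CPM in S04 to S06, from 79, 90 and 26 counts. S05 was high and S06 low, 3.66 times apart. The mean of 7.25 ± 4.0 CPM (SD, n = 3) was at least 16.2-fold above the mESC floor, or 12.1-fold to 21.0-fold with a library left out. Its interval in the count table starts 2511 bases inside the GENCODE gene, at the 3′ end. Per length it stood at 1.75 CPM per kb in CPCCs over the full 4148 exon bases of GENCODE, or at 4.43 CPM per kb over the exon bases inside the table's interval. In the same order of lengths it stood at 0.033 to 0.061 times or at 0.083 to 0.155 times the level of *Bmp4* in the same library.

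*Fstl1* encodes a secreted glycoprotein related to follistatin that is made by mesenchymal cells and by the epicardium, and lies on chromosome 16 from 37777055 to 37836517. It had 122.5, 130.5 and 133 CPM in S01 to S03 and 3321, 3511 and 2436 CPM in S04 to S06. The mESC libraries were nearly equal, and all CPCC libraries were far above them. The means were 128.7 ± 5.52 and 3089 ± 574 CPM (SD, n = 3 each), a log2 fold change of 4.59 (SE 0.19, edgeR test, adjusted p = 1.28e-06). Per length it was the highest of the 10 genes in CPCCs at 629 CPM per kb, rank 40 of 15258 genes with a length, and the highest of the 7 in mESCs at 26.2 CPM per kb.

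*Bmp1* is named as a BMP but encodes an astacin metalloprotease, which cuts the C-propeptides of fibrillar procollagens and the antagonist chordin. It lies on chromosome 14 from 70474555 to 70520261. It had 1.70, 3.09 and 2.05 CPM in S01 to S03, from 11, 21 and 14 counts, and 718.5, 563 and 447.6 CPM in S04 to S06. It was low in every mESC library and abundant in every CPCC library. The means were 2.28 ± 0.72 and 576 ± 136 CPM (SD, n = 3 each), and the log2 fold change of 7.97 (SE 0.31, edgeR test, adjusted p = 9.64e-07) was the largest of the 7 genes tested. With a library left out it lay between 7.79 and 8.26. The ratio of *Bmp1* to *Pcolce*, whose product enhances its procollagen cleavage, was 0.011 to 0.016 per length in mESCs and 0.995 to 1.42 in CPCCs. The fibrillar collagen genes *Col1a1*, *Col1a2* and *Col3a1*, whose products it processes, are among the mesenchyme markers that were high in the same libraries.

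**Figure D3:**
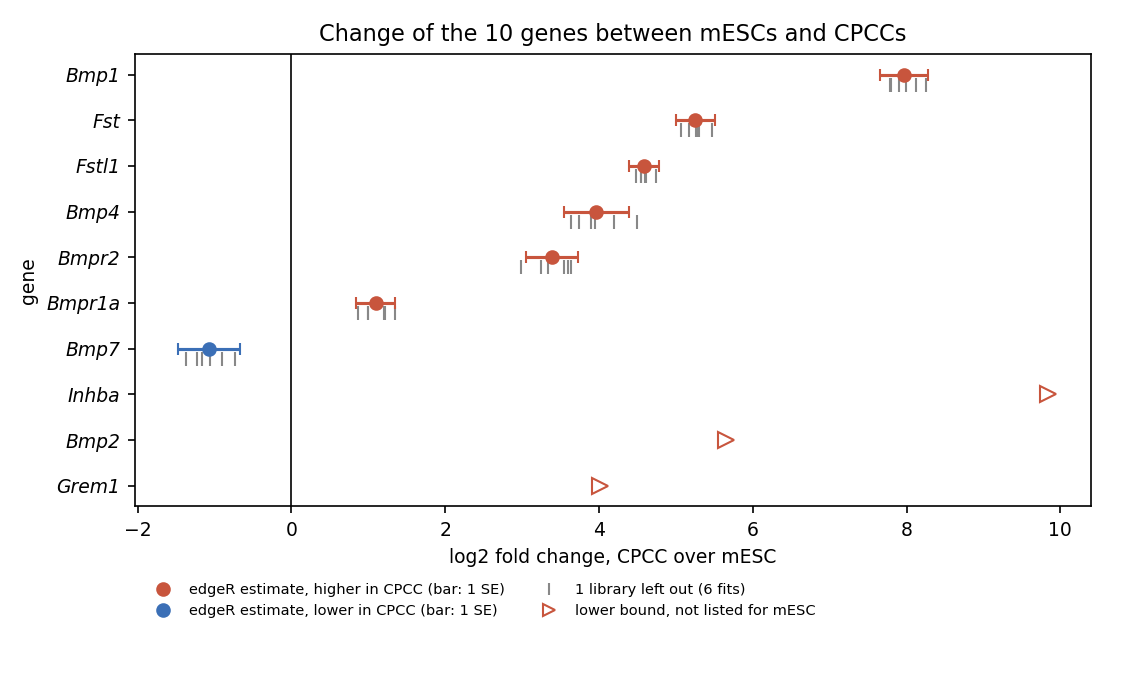
Log2 fold change (CPCC over mESC) of the 10 genes, with points and bars for the edgeR estimate and its standard error, gray ticks for the 6 fits with 1 library left out, and open triangles for lower bounds. *Bmp1* is farthest right among the tested genes at 7.97, *Inhba* has a bound near 10, and *Bmp7* alone lies left of 0.

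Ordered by level per length in CPCCs, *Fstl1* (629 CPM per kb) was followed by *Bmp1* (65.0), *Inhba* (64.1), *Bmp4* (33.2), *Fst* (30.6), *Bmpr1a* (26.3), *Bmpr2* (20.6), *Bmp2* (6.31), *Bmp7* (1.99) and *Grem1* (1.75), all as means in CPM per kb. With lengths from the table's own intervals, *Grem1* (4.43 CPM per kb) came before *Bmp7* and the other places were the same. The ranges of neighbors in this order overlapped from *Bmp1* through *Bmpr2*, and for *Bmp7* and *Grem1*. Compared within libraries, *Inhba* was above *Bmp4* and *Bmpr1a* above *Bmpr2* in 3 of 3 CPCC libraries. The order held in 2 of 3 for *Bmp1* and *Inhba*, *Bmp4* and *Fst*, *Fst* and *Bmpr1a*, and *Bmp7* and *Grem1*. In mESCs the order was *Fstl1* (26.2 CPM per kb), *Bmpr1a* (12.3), *Bmp7* (4.16), *Bmp4* (2.12), *Bmpr2* (1.96), *Fst* (0.80) and *Bmp1* (0.26). There the range of *Bmp4* overlapped with those of both of its neighbors, although *Bmp7* was above *Bmp4* in 3 of 3 libraries, and *Bmp1* moved from the last place of 7 to the second of 10 in CPCCs. With lengths from the table's own intervals, *Bmpr2* (2.18 CPM per kb) came before *Bmp4* (2.13) in mESCs. Within mESC libraries, *Bmp4* was above *Bmpr2* in 2 of 3 with GENCODE lengths.

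The CPCC libraries were not alike in these genes. S04 was highest in 6 of the 10 genes, S05 in 4 and S06 in 0, and S06 was lowest in 8. Among all genes tested, S04 was highest among CPCC libraries in 38.8%, S05 in 28.3% and S06 in 32.9%, and S06 was lowest in 34.1%. *Inhba*, *Bmpr2*, *Bmpr1a*, *Bmp2* and *Bmp1* were highest in S04 and lowest in S06, while *Bmp4*, *Bmp7*, *Grem1* and *Fstl1* peaked in S05. S06 also had the highest sum of pluripotency markers and the lowest sum of mesenchyme markers among CPCC libraries, and S04 the highest cardiomyocyte sum; their part in the spread was not tested. In mESCs, 5 of the 7 listed genes were highest in S03, as were 38.0% of all genes tested.

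The rest of the pathway was described with 74 other genes in 7 lists, of which 45 were tested, 21 are listed for CPCCs only and 8 in neither table. Of the 45, 26 were higher and 6 lower in CPCCs and 13 did not pass, beside 31.7% higher and 29.7% lower over all genes tested, the same background for each list below. The median log2 fold change of these other genes was 1.46 for those tested and 1.60 with bounds, against 0.031 over all genes tested. The values given for single genes below are log2 fold changes (CPCC over mESC) from the edgeR test, unless named as bounds.

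Among other ligand genes, 2 of 3 tested were higher, *Bmp8b* (3.50, or 4.11 without S02) and *Bmp6* (1.66), and *Bmp8a* (-0.82) did not pass. Of the 5 listed for CPCCs only, 1 had a bound of at least 10-fold, beside 27.1% of all genes listed for CPCCs only. This was *Gdf6*, which acts in joint and eye development, with a bound of 14.9-fold, or 6.20-fold without S04. *Bmp5* and *Gdf5* were at or under the floor. Of the other activin and inhibin subunit genes, *Inhbb* was the 1 tested and was higher (2.58). It rose from 1.54, 1.32 and 3.36 CPM to 25.6, 6.06 and 5.73 CPM, with S04 high as for *Inhba*, and its log2 fold change without S04 was 1.51 (edgeR test, adjusted p = 0.0363). *Inhba* made up 89.3% to 94.0% of the summed CPM per kb of this family in CPCCs.

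Of the other receptors and co-receptors, 9 were tested, and 4 were higher, 3 lower and 2 not past the threshold. *Acvr1* (2.09), the co-receptor genes *Rgma* (1.86) and *Rgmb* (1.69), whose products present BMPs to the receptors, and *Acvr2a* (1.46) were higher. *Tgfbr3* (-2.00), which encodes betaglycan, *Acvr2b* (-1.07) and *Bambi* (-0.95), which encodes a pseudoreceptor, were lower. *Acvr2b* stood at 93.3, 97.4 and 90.1 CPM in S01 to S03 and at 20.9, 47.7 and 65.7 CPM in S04 to S06. Its call (adjusted p = 0.0245, edgeR) was lost without S01, S02, S03 or S05 (adjusted p 0.0575 to 0.0656, edgeR), with a log2 fold change of -1.11 to -1.03. *Acvrl1*, the ALK1 gene of endothelial cells, was at least 31.8-fold higher by its bound.

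Of the other secreted antagonists and modulators, 7 were tested, 5 were higher and 2 did not pass (*Dand5* and *Kcp*, 0.22 and 0.61). *Nbl1* (5.65), a DAN-family antagonist, *Crim1* (5.44), a membrane protein that tethers BMPs, *Fstl3* (4.64), a follistatin-like activin antagonist, and *Chrd* (3.12), which encodes chordin, had the largest changes, followed by *Twsg1* (1.78). *Chrd* was low in both groups, with 5.79 ± 0.41 CPM in CPCCs (SD, n = 3) and 10, 2 and 1 counts in S01 to S03, and its log2 fold change was 4.62 without S01. Without S03 the log2 fold change was 5.67 for *Fstl3* and 6.38 for *Nbl1*. A further 9 are listed for CPCCs only, with bounds of 104-fold for *Bmper*, 35.4-fold for *Sostdc1* (19.0-fold without S05) and 11.8-fold for *Nog*, the noggin gene. A sum per length was taken over *Fst*, *Grem1* and this list without *Kcp*, *Fstl4*, *Fstl5* and *Vwc2*, with unlisted genes at 0. It rose from 8.98 to 20.5 CPM per kb in mESCs to between 126 and 211 CPM per kb in CPCCs. *Twsg1* held 59.7% to 68.7% of that sum in mESCs and 15.0% to 19.0% in CPCCs. *Fst* held 5.71%, 8.92% and 4.98% of that sum in S01 to S03 and 16.2%, 16.7% and 23.0% in S04 to S06.

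The list of proteases that mature BMP ligands or cut chordin beside *Bmp1* also holds *Pcolce*, which encodes an enhancer and not a protease. In this list 3 of 4 genes tested were higher and 1 was lower. The convertase genes *Furin* (2.88) and *Pcsk5* (1.60) and the enhancer gene *Pcolce* (1.51) were higher. *Pcsk6* (-3.08), another convertase gene, was lower, with 142.9, 131.4 and 174.9 CPM in S01 to S03 against 18.5, 15.6 and 19.0 CPM in S04 to S06. *Tll1*, a close relative of *Bmp1*, was at least 88.3-fold higher by its bound.

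Of 12 SMAD genes and SMAD regulators, all were tested, 6 were higher and 6 did not pass. The receptor-activated SMAD genes of the BMP branch were *Smad5* (1.57, higher), *Smad1* (0.58, higher) and *Smad9* (-0.23, not past the threshold). *Smad1* lost its call without S01, S02 or S06 (adjusted p 0.0732 to 0.106, edgeR). The repressor gene *Skil* (2.15) and the ubiquitin ligase genes *Smurf1* (1.98) and *Smurf2* (0.89) were higher, as was *Ski* (0.79). The shared SMAD gene *Smad4* (0.36) and the inhibitory *Smad6* (0.85) and *Smad7* (0.19) did not pass, and neither did *Tob1* (0.63) and *Ppm1a* (-0.04).

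Of the BMP target genes, 9 were tested, and 5 were higher, 2 lower and 2 not past the threshold. The *Id* genes, direct targets of SMAD1 and SMAD5, were all higher: *Id3* (4.60), *Id1* (3.35), *Id2* (1.65) and *Id4* (1.24). *Id3* stood at 18.7, 28.2 and 18.4 CPM in S01 to S03 and at 506, 637 and 447 CPM in S04 to S06. *Id1* stood at 6.64, 5.44 and 5.56 CPM in S01 to S03 and at 53.5, 66.5 and 59.9 CPM in S04 to S06. *Id1* and *Id3* were highest in S05, as was *Bmp4*, while *Id2* and *Id4* were lowest in S05 and highest in S06. The call of *Id4* was lost without S01, S02, S05 or S06 (adjusted p 0.0622 to 0.140, edgeR), and with missing genes at 3 counts (0.0579); without S03 its log2 fold change was 1.91. *Msx2* (2.10) was higher, and *Msx1* (1.64) and *Hey1* (0.90) did not pass, although *Msx1* passed in DESeq2 (adjusted p = 0.0306). *Tbx3* (-5.36), which mESCs use in self-renewal, and *Gata2* (-2.42) were lower, while *Tbx2* was at least 26.4-fold higher by its bound.

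**Figure D4:**
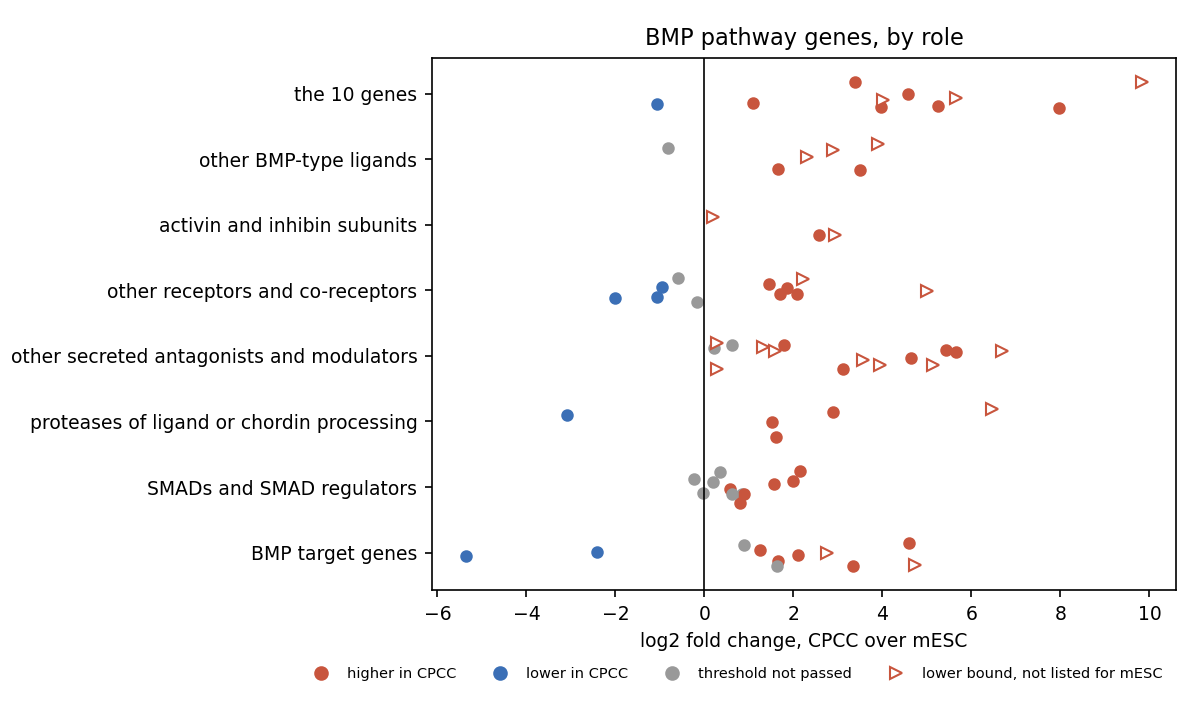
Log2 fold change (CPCC over mESC) of the 10 genes and of the 7 lists of other pathway genes, with 1 point per gene, triangles for lower bounds and gray for genes past no threshold. Points right of 0 outnumber those left of 0, and *Tbx3* at -5.36 is the farthest left.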

How the data were processed

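RNA of mESCs and CPCCs was reverse transcribed with SMART-Seq v4 and sequenced in bulk. The authors deposited estimated counts per gene, not normalized, in 1 table per group, with 17.9% to 21.5% of values not whole. Their processing notes name STAR 2.7 and mm10; the counter and strand setting are not given in the sources used here. Groups came from table names and labels.

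Counts were rounded. The 13001 genes in both tables were filtered (filterByExpr, 530 removed) and tested with edgeR 4.0.16 in R 4.3.3 (quasi-likelihood, TMM, Benjamini-Hochberg). CPM used TMM library sizes over shared genes, where 3 counts equal 0.298 to 0.463 CPM. Standard errors are the log2 fold change over the square root of F. Bounds and floors hold no allowance for counting error or for the spread between libraries. The p-values set the group difference against the spread between libraries, without pairing the CPCCs to their parent clones. Alternatives were DESeq2 1.42.0, other normalizations and filters, filled missing genes and libraries left out.

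Members and lists were chosen with earlier results of these data known. All 10 genes are named, up to 4 examples per list by size of change, and the 3 most similar patterns for *Bmp4*, *Bmpr1a* and *Fst*. An example that the rule would name is not reported here. On simulated counts for 13001 genes with 50 changed at each fold, edgeR recovered 9 at 2-fold, 41 at 4-fold and 47 at 8-fold and at 16-fold, with 10 false calls. Most 2-fold changes were missed there. Only 200 genes were changed in the simulation, while 61.4% of genes tested passed in the data, so these rates do not carry over.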

Additional observations from a re-analysis of the deposited data

How the results depend on the processing

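The 6 BMP genes called as higher kept that call in the 6 fits with a library left out and in the 9 other settings, among them DESeq2, another normalization, no filter and at least 10 counts in every library. With missing genes filled, 9 of the 10 genes were called as higher, at either fill. The number called as lower, 1 (*Bmp7*), fell to 0 with library totals without TMM and lay between 0 and 1 with a library left out; the smaller fits have fewer samples. Over all genes tested, 2430 were lower in CPCCs past a 2-fold threshold, fewer by its construction. The median of all genes moved to 0.17 on the log2 scale with missing genes at 0 counts. Of 32 pathway genes called, 24 were tested and called alike in all 14 settings, 5 were removed by the filter of 10 counts in every library and called alike in the others, and 0 changed sign; 4 genes not called gained a call in a setting (*Bmp8a* and *Eng* without S04, *Smad6* with that filter and *Msx1* with DESeq2). The length inside the table's intervals was chosen after seeing the data. No paired analysis was possible because the columns carry no replicate numbers. The mESC counts of *Bmp1*, 11 to 21, limit the precision of its fold.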

Other observations

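Among all genes tested, the genes whose profile over the 6 libraries was nearest to that of a BMP gene were found by the root mean square difference in log2 CPM after centering each gene, as a description. For *Bmp4* they were *Npy1r* (0.16), a neuropeptide Y receptor gene, *Lif* (0.18), the gene of the cytokine that is also added to mESC medium, and *Gab2* (0.25), against a median of 2.09 over all genes. *Lif* had 2.16, 1.47 and 0.73 CPM in S01 to S03 and 29.0, 29.9 and 21.2 CPM in S04 to S06, so it shared with *Bmp4* the order of the mESC libraries and the highest value in S05. For *Bmpr1a* they were *Abhd13* (0.035), *Fam168b* (0.084) and *Dcun1d1* (0.087), against a median of 0.86. All have S03 as the high mESC library and S04 as the high CPCC library. For *Fst* they were *Crabp2* (0.15), a retinoic acid-binding protein gene, *Tspan6* (0.17) and *Dpysl3* (0.21), against a median of 2.62. The distances rest on 6 libraries in 2 groups, so any gene with a like difference between the groups scores near.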
